A study of Nomascus leucogenys with 4 samples.

Results

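At 422 autosomal sites that were called as PU.1 peaks in both of 2 gibbon cell lines, the number of immunoprecipitated fragments departed from the usual ratio between the lines. They are called discordant sites here. PU.1 was mapped by chromatin immunoprecipitation and sequencing (ChIP-seq) in Epstein-Barr virus-transformed lymphocyte lines of Nomascus leucogenys, the northern white-cheeked gibbon. The lines came from 2 individuals, Ricky and Vok, which the design text describes as biological replicates. Each individual gave 1 library made with an anti-PU.1 antibody and 1 input library made without antibody, and both lines carry the same viral transformation. After removal of duplicates, the ChIP libraries held 39743757 fragments in Ricky and 42905332 in Vok, and the inputs 31218578 and 40288483.

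PU.1, the product of SPI1, belongs to the ETS family of transcription factors and binds a purine-rich DNA motif, often at enhancers. It is needed in B lymphocytes and myeloid cells, its dosage matters for the choice between these lineages, and in B cells it commonly binds together with IRF factors. No source used here names the genome build, so the sites were not assigned to genes and no sequence is shown. Coordinates follow the authors' lists (first base 1) and refer to the Ricky peak of a pair.

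The sites were found by pairing each Ricky peak with the overlapping Vok peak (1 bp or more) of highest pileup. The pileup is the number of fragments that cover the summit base. Of 5596 such pairs on all sequences, 5294 lay on the 25 placed autosomes. Their median log2 ratio of Vok to Ricky pileup was -0.50, a ratio of 0.706, and every pileup ratio below is centred on it. Ratios of fold enrichment are centred on their own median over the same pairs, -0.61. A pair was eligible when the larger pileup was at least 40, which held for 3419 pairs. Discordant pairs had a centred log2 ratio of at least 0.75 in size, that is, a Vok pileup under 0.420 or over 1.19 times that of Ricky. The pileups that chose the sites are given below as a description. With 1 ChIP library per individual, no difference between individuals could be tested.

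The 422 discordant sites made up 12.3% of the eligible pairs. Ricky-high sites, with relatively more fragments in Ricky, numbered 265 (7.75% of eligible pairs). Vok-high sites numbered 157 (4.59%). By construction, uncentred pileups were higher in Ricky at all 265 Ricky-high sites and higher in Vok at all 157 Vok-high sites. Ricky was higher at 2878 of the 2997 other eligible pairs. The excess of Ricky-high sites depended on the centring, and it turned to 140 Ricky-high against 214 Vok-high sites when the median of the eligible pairs (-0.65) was used. A running median along the level gave 181 and 200, and a centre at the log2 ratio of ChIP fragments (0.11) gave 1761 and 56. Among the 1875 pairs under the minimum pileup, 218 passed the ratio threshold on the Vok side and 1 on the Ricky side. The lowest pileup in the autosomal lists was 12 in Ricky and 14 in Vok, which limits how far a weak site can fall and still be called in both.

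**Figure D1:**
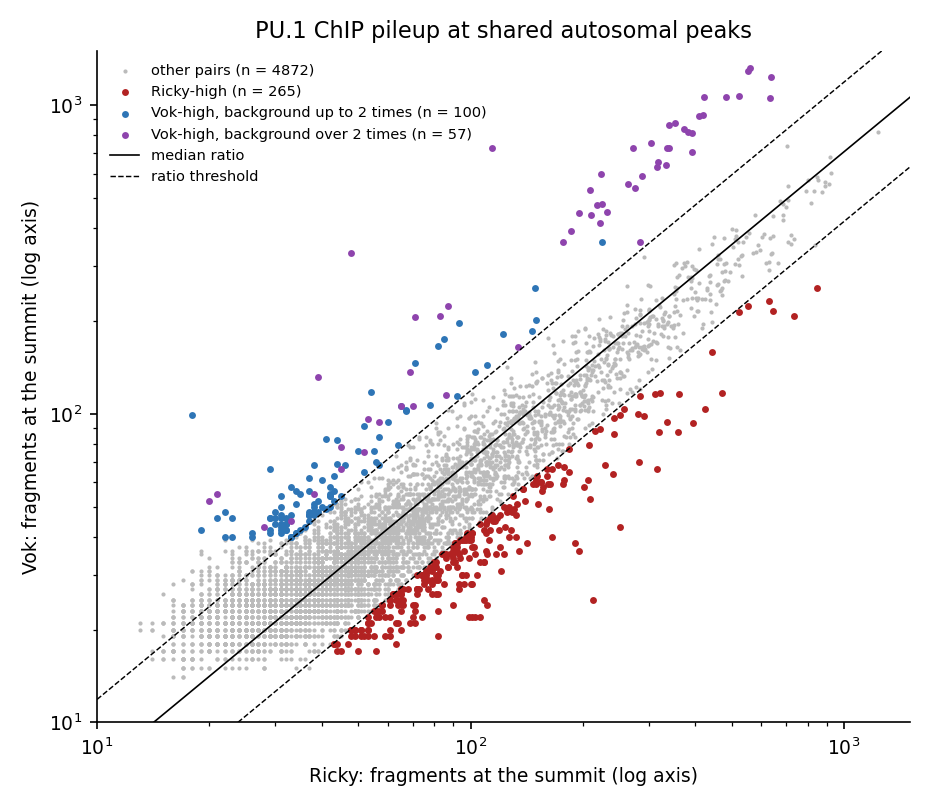
Fragments at the summit in Ricky (x axis) and Vok (y axis), both on log axes, for the 5294 autosomal pairs, with 1 point per pair. Ricky-high sites lie below the lower dashed line and Vok-high sites above the upper one. Grey points outside the lines are pairs whose larger pileup was under 40, and a separate group of Vok-high sites with high background reaches 1317 fragments.

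Counting error was large against the threshold at most single sites. For every pair, the exact Clopper-Pearson 95% interval of Vok's share of both pileups was turned into a centred log2 ratio. It left out 0, the usual ratio, at 416 of the 422 discordant sites and at 475 of the 2997 other eligible pairs. The 6 sites whose interval held 0 were all Ricky-high, with 43 to 48 fragments in Ricky and 18 to 20 in Vok. At 95 of the 422 sites the whole interval lay beyond the threshold of 0.75, 34 of them Ricky-high and 61 Vok-high, and at the others it reached back past it. The intervals cover counting error only. They treat fragments as independent, take the centre as known, and hold no spread between cultures or libraries. Membership was chosen on the same counts, so that the intervals describe precision and do not test the sites.

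As a multiple of counting error, the spread of ratios was largest at strong sites. At pairs whose larger pileup was 40 to 59, the interquartile range of the centred ratio was 0.55, against 0.45 from counting alone (delta method, at the median pair). It was 0.56 against 0.37 from 60 to 99, 0.53 against 0.28 from 100 to 199, and 0.43 against 0.18 at pairs with 200 fragments or more. The share of discordant pairs was 8.95% (interval 7.41% to 10.7%) in the class from 40 to 59 and 13.1% (11.1% to 15.4%) from 60 to 99. It was 13.9% (11.4% to 16.6%) from 100 to 199 and 17.2% (13.9% to 21.0%) from 200 upwards. Of the 79 discordant pairs in this last class, 36 lay in 1 stretch of chromosome 6 described below. The highest share thus depends on that stretch and does not show a steady rise with level. The mixture of directions differed between the classes, which use the larger pileup as the rule does. From 40 to 59, the smaller pileup at Ricky-high sites had a median of 20, and the lowest Vok pileup was 14. The need to be called in both lines thus limits Ricky-high sites in that class, and shares and directions by class are a description. Vok-high sites were the larger part from 40 to 59 (69 against 40) and from 200 upwards (44 against 35), and Ricky-high sites from 60 to 99 (110 against 24) and from 100 to 199 (80 against 20). The 36 sites of the chromosome 6 stretch were all among the 44 Vok-high sites from 200 upwards. Median centred ratios of all eligible pairs moved from -0.05 in the lowest of these classes to between -0.19 and -0.23 in the other 3.

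At the threshold itself the sites differed little from pairs left out. The Ricky-high sites closest to it lay on chromosomes 13 (87223917 to 87224292) and 22a (15940331 to 15940794), each with 62 fragments in Ricky and 26 in Vok, and on chromosome 17 (85304809 to 85305131), with 43 and 18. Just outside were pairs with 81 and 34 fragments on chromosome 10, 100 and 42 on chromosome 8, and 834 and 351 on chromosome 14. On the Vok side the closest sites held 42 and 50 fragments in Ricky and Vok on chromosome 10, 57 and 68 on chromosome 7b, and 36 and 43 on chromosome 5. Pairs with 43 and 51 on chromosome 8, 38 and 45 on chromosome 11, and 87 and 103 on chromosome 10 stayed just outside.

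Ricky-high sites had a higher median pileup than other eligible pairs in Ricky and a lower one in Vok, as their choice on these pileups favours. Their pileups ran from 43 to 845 fragments in Ricky (median 93) and from 17 to 255 in Vok (median 33), so that the ranges of the lines overlap across sites. Other eligible pairs had medians of 72 in Ricky and 48 in Vok. The median centred ratio was -0.91, and 87 of the 265 sites were at -1 or below. The authors' peak caller also gives a fold enrichment over background, with medians of 19.6 in Ricky and 6.36 in Vok. At other eligible pairs these were 15.4 and 9.33. Fold enrichment is computed from the same pileups and so gives no independent support. The Ricky peak was the wider one at 263 of 265 sites, with median widths of 517 bp in Ricky and 309 bp in Vok. It was also the wider one at 2573 of the 2997 other eligible pairs, with medians of 494 bp and 390 bp. The part of pileup in these widths was not tested.

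The most discordant Ricky-high site, at 146872580 to 146873338 of chromosome 2, held 213 summit fragments in Ricky and 25 in Vok. Its centred log2 ratio was -2.59 (interval -3.25 to -1.99), and its fold enrichments were 49.4 and 5.33. The summits were 4 bp apart, so that the same position was a strong peak in one line and a weak one in the other. On chromosome 4, the site at 21587559 to 21588307 held 251 fragments in Ricky and 43 in Vok, a centred ratio of -2.04 (-2.54 to -1.57). On chromosome 19, the site at 67328822 to 67329534 held 195 and 36 fragments (-1.93, interval -2.49 to -1.42). At each of these 3 sites the whole interval lay beyond the threshold. On chromosome 3, the summit at 30527935 to 30528601 held 190 and 38 fragments with no distance between the summits. A second chromosome 4 site, at 108813793 to 108814349, held 106 and 22, and a chromosome 5 site at 41684418 to 41685114 held 316 and 66. The remaining 4 of the 10 had 99 to 111 fragments in Ricky and 22 to 24 in Vok. They lay on chromosomes 21 (21615491 to 21615943), 10 (59836387 to 59836894), 15 (107942880 to 107943516) and 3 (47324585 to 47325108). Backgrounds at these 10 sites were within 1.37 times the genome-wide level in both lines.

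Very strong sites were discordant too, and their intervals were narrower. The strongest Ricky-high site, on chromosome 22a at 121883990 to 121884889, held 845 fragments in Ricky and 255 in Vok, a centred ratio of -1.23 (interval -1.43 to -1.02). A chromosome 19 site at 31197213 to 31198137 held 734 and 208 (-1.32, interval -1.55 to -1.09). Summits of both were within 3 bp. Chromosome 13 carried a pair of such sites: one at 1326178 to 1327521 with 645 and 216 fragments (-1.08), and one at 42062730 to 42063583 with 630 and 232 (-0.94). The fifth, on chromosome 19 at 52464736 to 52465597, held 553 and 224 (-0.80, interval -1.03 to -0.57), so its interval reaches below the threshold in size.

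Vok-high sites fell into groups with low and with high background. The background is the number of fragments that the peak caller expects at the summit, computed here from its pileup and fold enrichment. It is given in multiples of the genome-wide level, 3.33 fragments in Ricky and 3.87 in Vok, and values above that level come from the input around the peak. High background means over 2 times that level in either line. It was present at 57 of the 157 Vok-high sites (36.3%), at 10 of the 265 Ricky-high sites (3.77%) and at 98 of the 2997 other eligible pairs (3.27%). Where the larger background was at most 2 times the level, 255 of 3254 eligible pairs were Ricky-high (7.84%) and 100 were Vok-high (3.07%). From 2 to 10 times the level, 10 of 113 pairs were Ricky-high (8.85%) and 12 were Vok-high (10.6%), 3 of the latter in the chromosome 6 stretch. Where it was over 10 times the level, 35 pairs of that stretch and 10 of 17 pairs elsewhere were Vok-high, and none was Ricky-high. The Vok-high share was thus larger at higher background, but Vok-high sites clearly outnumbered Ricky-high ones only above 10 times the level. The part of background in the pileup ratios was not tested.

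**Figure D2:**
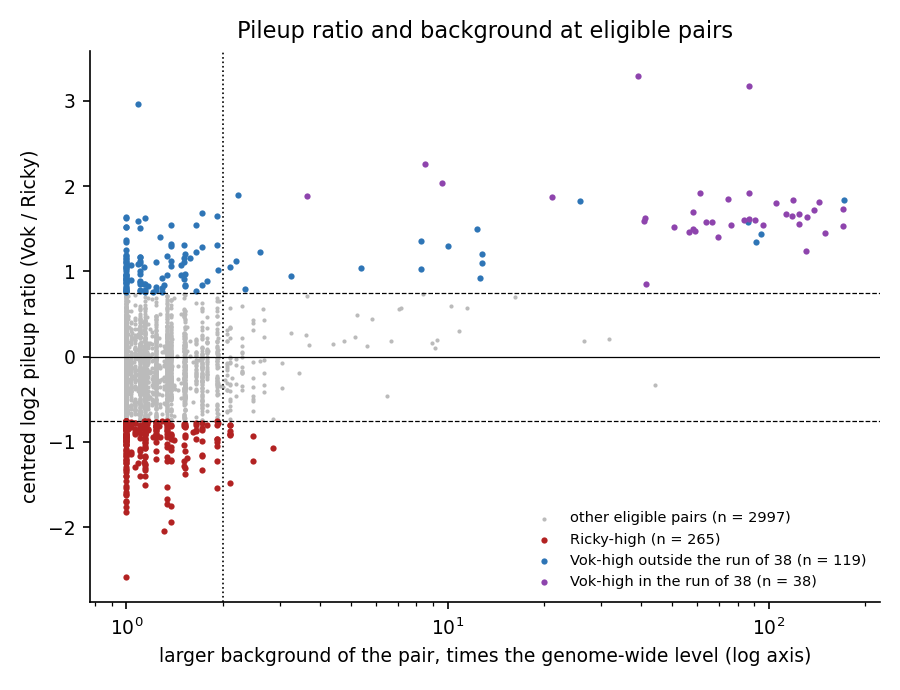
Centred log2 pileup ratio (y axis) against the larger background of a pair in multiples of the genome-wide level (x axis, log), for the 3419 eligible pairs, with 1 point per pair. The dotted line marks 2 times the level and dashed lines the ratio threshold. Points to the right of 10 times the level are mostly Vok-high, and no Ricky-high site exceeds 2.87 times.

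The 100 Vok-high sites at low background were spread over 23 chromosomes. Their median pileup was below that of other eligible pairs in Ricky (72) but not in Vok (48). They held 18 to 225 fragments in Ricky (median 37.5) and 40 to 359 in Vok (median 51), and the ranges overlap across sites. The median centred ratio was 1.01, and fold enrichment had medians of 8.77 in Ricky and 10.1 in Vok. By fold enrichment, which is computed from the same pileups and so gives no independent support, 73 of the 100 were past 0.75. The Vok peak was the wider one at 80 of the 100, with medians of 377 bp in Ricky and 408 bp in Vok.

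The largest ratio among them joined peaks whose summits did not match. On chromosome 17, a Ricky peak at 33040900 to 33041118 with 18 fragments was paired with a Vok peak of 99 fragments, 624 bp away at the summit (centred ratio 2.96). That Vok peak also overlapped a Ricky peak of 143 fragments at 33040143 to 33040667, whose summit lay 5 bp from Vok's and whose centred ratio was -0.03. Between those matching summits the lines did not depart from the usual ratio.

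The next examples had matching summits and were chosen for naming after their values were seen. The chromosome 3 site at 15420085 to 15420322 held 29 fragments in Ricky and 66 in Vok, a centred ratio of 1.69 (interval 1.04 to 2.37). On chromosome 1a, the site at 108698251 to 108698643 held 54 and 118 (1.63, interval 1.15 to 2.12). On chromosome 5, the site at 104779693 to 104780243 held 93 and 197 (1.59, interval 1.22 to 1.96). These 3 had summits 3 to 15 bp apart. A chromosome 3 site at 115181938 to 115182425 held 85 and 175 fragments with the same summit base in both lines (1.54, interval 1.16 to 1.94). Sites on chromosome 22a at 88028086 to 88028588 and at 80959704 to 80960217 held 71 and 146, and 82 and 166 fragments, with ratios of 1.54 and 1.52. The highest pileup of this group was on chromosome 22a at 510266 to 510889, with 225 fragments in Ricky and 359 in Vok (1.18, interval 0.93 to 1.42) and a shared summit base. A chromosome 11 site at 48200931 to 48201532 followed with 149 and 256 fragments (1.28, interval 0.99 to 1.58).

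A single stretch of chromosome 6, from 26020501 to 26218014 (198 kb), held 38 Vok-high sites, 24.2% of the direction. They form a run in which each site lies within 100 kb of the next, and the median distance to the nearest other site of the run was 1162 bp. The stretch held 39 pairs, all eligible, and the one pair outside the threshold had a centred ratio of 0.65. In the 500 kb before the stretch there was 1 further pair, with a centred ratio of -0.47, and in the 500 kb after it there was none. Pileups at the 38 sites were 20 to 636 fragments in Ricky (median 286) and 52 to 1317 in Vok (median 642). Vok is higher at each by construction. The median centred ratio was 1.63 (quartiles 1.54 and 1.84).

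Input background was raised in both lines at these 38 sites, and more in Vok. At the 38 sites the background had a median of 37.4 times the genome-wide level in Ricky and 80.1 times in Vok. The centred pileup ratio of 1.63 stood beside a log2 ratio of these background multiples, Vok to Ricky, of 1.00 (range 0.75 to 3.21). Fold enrichment, which divides by the background, was low in both lines, with medians of 2.26 in Ricky and 2.08 in Vok. Its centred log2 ratio had a median of 0.56, and 6 of the 38 sites passed 0.75 on that measure. In the pileup ratios of this stretch, a difference in PU.1 binding and a difference in the amount of mapped chromatin cannot be told apart. The 1 pair that was not discordant had backgrounds of 1.15 times the level in Ricky and 1.95 times in Vok.

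**Figure D3:**
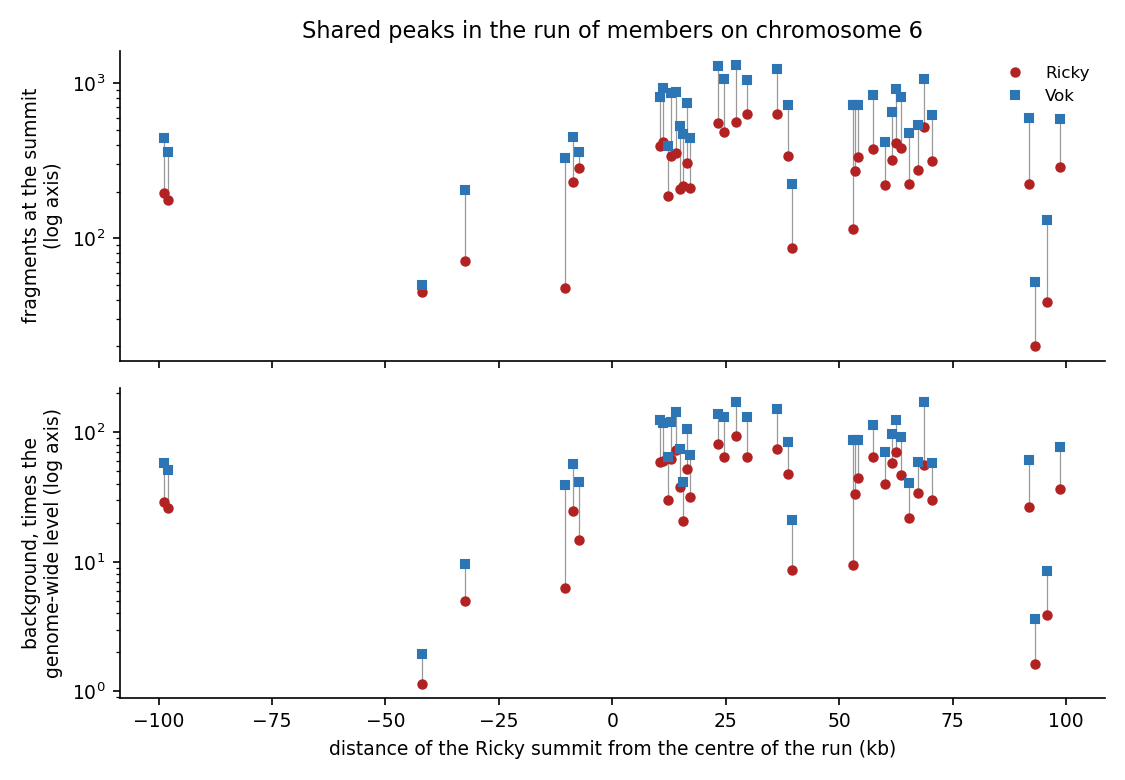
The 39 shared peaks of the chromosome 6 stretch by distance of the Ricky summit from its centre (x axis, kb). The upper panel shows fragments at the summit and the lower panel the background in multiples of the genome-wide level, both on log axes, with Ricky as circles and Vok as squares joined by a line per pair. Vok exceeds Ricky in both panels at every pair drawn.

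The sites with the largest ratios of all came mostly from this stretch, 8 of the first 10 Vok-high sites. At 26108791 to 26109094, 48 fragments in Ricky stood against 332 in Vok (3.29, interval 2.85 to 3.76), with backgrounds of 6.30 and 39.2 times the level. At 26172133 to 26172434, 114 fragments in Ricky were paired with 726 in Vok (3.17), but the summits were 1110 bp apart. That wide Vok peak spanned 3 Ricky peaks, of which the one with the same summit base held 335 fragments and had a ratio of 1.62. The sites at 26215069 to 26215274 (39 and 132 fragments, 2.26) and 26086598 to 26086944 (71 and 206 fragments, 2.04) kept centred fold enrichment ratios of 1.06 and 1.01. The other 4, at 26211068 to 26211303, 26172648 to 26172909, 26212399 to 26212666 and 26158696 to 26158998, had ratios between 1.87 and 1.92. The one at 26172648 to 26172909 was paired with the same wide Vok peak of 726 fragments, with summits 496 bp apart. The highest pileups of any Vok-high site were at 26145376 to 26147656, with 560 and 1317 fragments, and at 26141827 to 26143047, with 555 and 1291. Their fold enrichments in Ricky and Vok were 1.81 and 2.00, and 2.06 and 2.40. Those at 26154896 to 26155876 (636 and 1231 fragments) and 26187215 to 26188567 (525 and 1073) followed, with ratios of 1.46 and 1.53.

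Another 19 Vok-high sites had high background outside that stretch, on 11 chromosomes. The strongest lay on chromosome 22a at 46183258 to 46183829, with 421 fragments in Ricky and 1061 in Vok (1.84, interval 1.67 to 2.00) and backgrounds of 91.9 and 171 times the level. A neighbour at 46184212 to 46184696 held 392 and 703 (1.35). Chromosome 24 had 334 and 640 fragments at 24985124 to 24985439 (1.44), and chromosome 11 had 264 and 556 at 60412073 to 60412256 (1.58). Fold enrichments at these 4 sites were between 1.37 and 2.23 in Ricky and between 1.60 and 1.98 in Vok, so each was a small excess over a large input signal. The chromosome 8 site at 60270495 to 60270733 was of another kind, with 21 and 55 fragments, fold enrichments of 5.08 and 5.82 and a background above the genome-wide level in Vok alone (2.23 times). Of the 19 sites, 8 passed 0.75 by fold enrichment.

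The 10 Ricky-high sites of high background were near the limit of that class, with at most 2.87 times the level in Ricky. The largest ratio was on chromosome 21 at 7222537 to 7223193, with 209 fragments in Ricky and 53 in Vok (-1.48), and a centred fold enrichment ratio of -0.63. By fold enrichment 2 of the 10 passed 0.75, against 207 of the other 255.

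Along the chromosomes, discordant sites were spread widely apart from the chromosome 6 stretch. All 25 autosomes carried Ricky-high sites and 24 carried Vok-high sites, chromosome 23 having none of the latter among 65 eligible pairs (10 Ricky-high). Chromosome 6 had 52 discordant among 186 eligible pairs (28.0%, interval 21.6% to 35.0%), and 9.46% when the 38 sites were left out. It was the only autosome whose interval did not hold the overall 12.3%. Without the stretch, the shares ran from 4.55% on chromosome 24 to 16.0% on chromosome 3, with a median of 11.5%. Ricky-high shares ran from 2.27% on chromosome 24 to 15.4% on chromosome 23. Chromosome 3, with 23 Ricky-high and 7 Vok-high sites, carried the most discordant sites after chromosome 6.

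**Figure D4:**
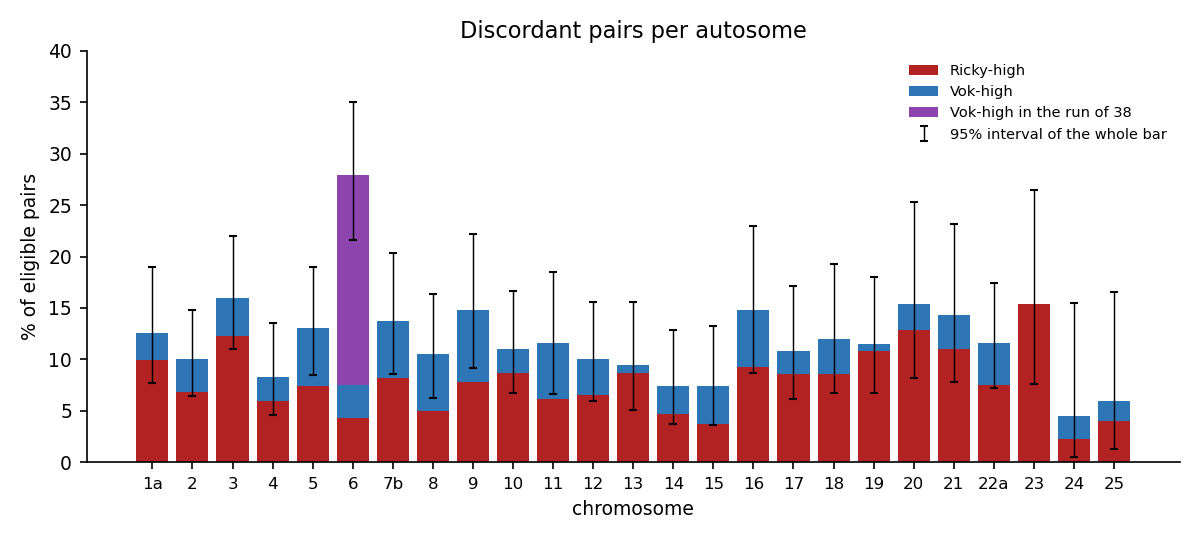
Discordant pairs per autosome as a percentage of its eligible pairs (y axis), stacked by direction, with the exact 95% binomial interval of the whole bar. The interval treats pairs as independent. Chromosome 6 reaches 28.0%, most of it from the run of 38 Vok-high sites, and the other autosomes lie between 4.55% and 16.0%.

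Runs of neighbouring discordant sites were short elsewhere. With runs defined by steps of at most 100 kb, 336 sites stood alone, 21 runs held 2 sites, 2 runs held 3, and 1 run held the 38. Outside the stretch 48 of 384 sites (12.5%) had another discordant site within 100 kb. Of the 29 Ricky-high sites among them, 25 had a nearest discordant neighbour of the same direction, as did 14 of the 19 Vok-high sites. The 384 sites were 265 Ricky-high and 119 Vok-high, so composition alone favours Ricky-high neighbours. Among all eligible pairs, a denser set, 48.5% had another eligible pair within 100 kb. Clustering by direction was not tested. The runs of 3 mixed directions. On chromosome 3, from 23645135 to 23746805, a Vok-high site (23 and 40 fragments in Ricky and Vok) preceded 2 Ricky-high sites (79 and 28, 90 and 34). On chromosome 7b, from 55538213 to 55647879, a Ricky-high site (72 and 30) lay between 2 Vok-high sites (57 and 68, 43 and 56).

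The share of Vok-high sites among eligible neighbours was larger around Vok-high sites than around other pairs, a difference that was not tested. Among the 84 eligible neighbours within 100 kb of the 119 Vok-high sites outside the stretch, 14 were Vok-high (16.7%, interval 9.42% to 26.4%). Around other eligible pairs, 65 of 2457 neighbours were Vok-high (2.65%, interval 2.05% to 3.36%), and the overall share outside the stretch was 3.52%. Neighbours are counted once for each site they lie near, so these intervals are too narrow. Those 14 formed 7 neighbouring pairs, and 4 of these lay within 4 kb. Pairs on chromosomes 15, 22a and 5 had high background at both sites, and the pair on chromosome 5 shared a single Vok peak. Around the 265 Ricky-high sites, 26 of 243 neighbours were Ricky-high (10.7%, interval 7.11% to 15.3%), against 212 of 2457 (8.63%, 7.55% to 9.81%) around other eligible pairs.

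Neighbouring pairs that were not discordant are given as a description. Their ratios are under 0.75 in size by construction whenever they are eligible, so they cannot show how far a difference extends. The nearest such pair within 100 kb had a median centred ratio of -0.03 (quartiles -0.33 and 0.22) at 152 Ricky-high sites, against 0.02 over all 4872 pairs that were not discordant. Among eligible pairs alone these medians were -0.21 (98 sites) and -0.13. Next to 76 Vok-high sites it was 0.48, but 26 of these are sites of the chromosome 6 stretch that share a single neighbour, the pair with a ratio of 0.65. Next to the other 50 it was 0.17 (quartiles -0.09 and 0.46). At low background the 40 Vok-high sites with such a neighbour gave 0.13. Within 50 kb the median next to 43 Vok-high sites was 0.19.

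Peaks called in a single line were also counted around the sites, since they entered no pair. A peak found in Ricky alone lay within 50 kb of 41.1% of Ricky-high sites (interval 35.1% to 47.3%) and of 41.5% of other eligible pairs (39.7% to 43.3%). At the 100 Vok-high sites of low background the share was 24.0% (16.0% to 33.6%). A peak found in Vok alone lay near 7.92% of Ricky-high sites (4.97% to 11.9%), 7.07% of other eligible pairs (6.18% to 8.05%) and 12.0% of the Vok-high sites of low background (6.36% to 20.0%). On both counts the intervals of the Ricky-high sites held the shares of the other eligible pairs. The lists held 6068 autosomal peaks found in Ricky alone and 1089 found in Vok alone.

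Summit positions, which the choice of sites did not use, matched closely at most discordant sites. The median distance between summits was 6 bp at Ricky-high sites (quartiles 3 and 12) and 8 bp at Vok-high sites (3 and 21), against 5 bp at other eligible pairs (2 and 11). Summits lay within 50 bp of each other at 257 of 265 Ricky-high sites (97.0%), 99 of 100 Vok-high sites of low background, and 2937 of 2997 other eligible pairs (98.0%). At the 57 Vok-high sites of high background this held for 44 (77.2%). The same summit base was called in both lines at 24 of the 422 sites and at 256 of the other 2997 pairs.

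Summit distance also changed with the number of fragments, so it was read within classes of the larger pileup. From 100 to 199 fragments the median was 6 bp at 80 Ricky-high sites and 3 bp at 622 other pairs. From 200 fragments upwards it was 2 bp at 35 Ricky-high sites and 1 bp at 380 other pairs. The smaller pileup was lower at the Ricky-high sites of those classes, with medians of 44.5 against 83 and 97 against 188 fragments. In the class from 40 to 59, where most low-background Vok-high sites fell, their median was 8 bp (64 sites) and that of other pairs 9 bp (1109 pairs). From 60 to 99 fragments the medians were 9 bp at 19 such Vok-high sites and 5 bp at 886 other pairs, and from 100 to 199 they were 4.5 bp at 14 sites and 3 bp. The 41 high-background Vok-high sites of 200 fragments or more had a median of 10 bp and an upper quartile of 36 bp. Of these, 36 lay in the chromosome 6 stretch. In the lower classes high-background Vok-high sites were few, with medians of 21 bp from 40 to 59 (5 sites), 4 bp from 60 to 99 (5 sites) and 193.5 bp from 100 to 199 (6 sites).

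**Figure D5:**
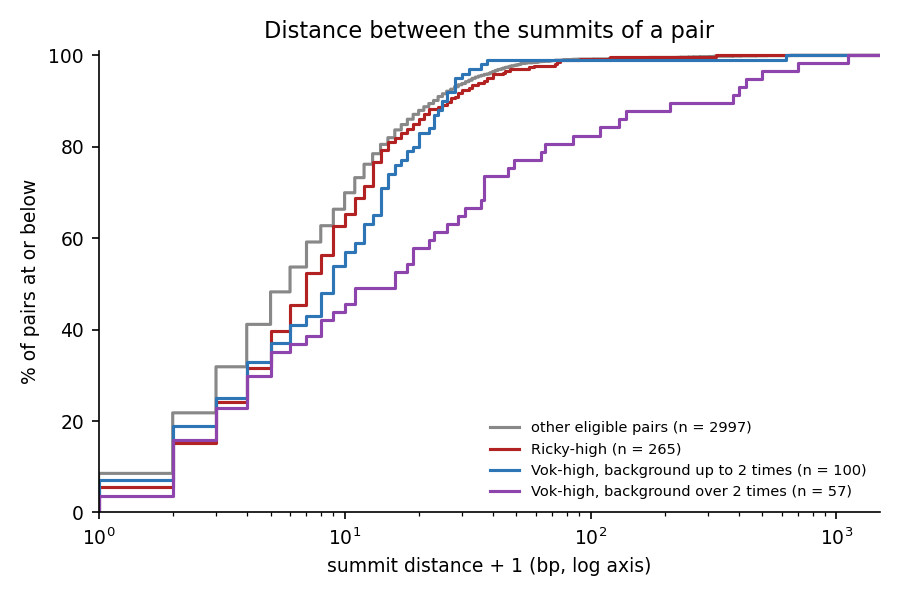
Cumulative percentage of pairs (y axis) by the distance between the Ricky and Vok summits plus 1 (x axis, bp, log). The curves of Ricky-high sites, low-background Vok-high sites and other eligible pairs are close together, with 97.0% of the first and 98.0% of the last within 50 bp, and the curve of high-background Vok-high sites reaches 77.2% there.

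Large summit distances were few, and some but not all involved wide peaks that overlapped several peaks of the other line. A distance over 100 bp occurred at 13 of the 422 sites, 10 of them Vok-high with high background. The largest were 1110 bp in the chromosome 6 stretch, 694 bp on chromosome 5 at 84664778 to 84665520, and 624 bp at the chromosome 17 site described above. Next came 496 bp and 429 bp in the stretch, at 26172648 to 26172909 and 26187215 to 26188567. In the first 4 of these 5, the Vok peak overlapped more than 1 Ricky peak. The largest distance at a Ricky-high site was 324 bp, on chromosome 23 at 404535 to 405378, where single peaks of 127 and 40 fragments overlapped. In all, 11 discordant sites involved a peak that overlapped more than 1 peak of the other line, and the 422 sites used 419 Vok peaks.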

How the data were processed

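The deposited peak lists give, per the file headers, the output of MACS 2.1.1.20160309, run in paired-end mode on bwa alignments filtered at a mapping quality of 30. Each ChIP library was called against its own input at a q threshold of 0.05, keeping at most 1 duplicate fragment. The submitters' processing notes list Trimmomatic, SAMtools, FastQC and a different aligner, Bowtie2, so the sources disagree on the aligner. As deposited by the authors, each peak has a pileup (signal, fragments covering the summit), a fold enrichment ratio, and −log10 p and q values. Pileups are whole numbers in 100% of peaks and were not scaled between libraries. The mapping filter lowers counts in repeats, and removal of duplicates lowers the highest pileups.

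The background at a summit was computed as (pileup + 1)/fold enrichment − 1. Its median over each list was taken as the genome-wide level. Groups came from sample titles. No test was run, since each individual has 1 ChIP library and the pileups chose the sites. Shares and ratios carry exact Clopper-Pearson 95% intervals, for counting error only. The calculations were tested on simulated data. Sites named were the 10 with the largest ratios and the 5 with the highest pileups per direction, runs of 3 or more, the 5 largest summit distances and the 3 pairs on each side of the threshold; a few others were chosen after their values were seen. The discordant sites, thresholds and classes were chosen with earlier results of these data known. Alternatives for overlap, pairing, minimum pileup, ratio, centring, measure and background were computed, and leaving out the chromosome 6 stretch was added after seeing the data. The repeat family table was not used here. Software was SciPy 1.17.1, matplotlib 3.10.9, numpy 2.4.6, Python 3.11.15 and pandas 2.3.3.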

Additional observations from a re-analysis of the deposited data

How the results depend on the processing

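No paired analysis was possible because the labels give no replicate numbers and each individual has 1 ChIP library, so neither library could be left out. Of the 135 values computed under alternatives, 106 stayed within 1.5 times (counts) or within the counting interval (shares and medians) of the reported value. Numbers of sites moved with the thresholds. A minimum pileup of 30 or 60 gave 239 or 88 Vok-high sites, and one of 100 gave 179 sites (115 Ricky-high, 64 Vok-high) with a median summit distance of 5 bp (4 bp at Ricky-high sites). A ratio of at least 0.5 gave 918 sites (642 and 276), and one of at least 1 gave 192 (87 Ricky-high), of which 26.6% lay within 100 kb of another. Centring on the eligible pairs left 140 Ricky-high sites. Centring on ChIP fragments gave 1817 sites (1761 and 56), with 35.1% near another and a summit distance of 5 bp. Requiring −log10 q of at least 10 left 144 Ricky-high sites, and leaving out pairs of high background left 103 Vok-high sites. The share of sites within 100 kb of another, 20.4% as reported, was 12.5% without the chromosome 6 stretch, 10.8% without pairs of high background, 12.8% with fold enrichment and 16.6% with a reciprocal overlap of 50%. Within 50 kb or 500 kb it was 16.6% or 34.8%. Without the stretch, the nearest pair that was not discordant had a median ratio of 0.17 at Vok-high sites, against 0.48 with it (0.19 within 50 kb). With 99% intervals, 81.8% of the sites left out 0, against 98.6% with 95% intervals. With fold enrichment in place of pileup, 530 sites were found, of which 296 were among the 422. The cause of these changes was not tested. At 40 fragments, counting error alone spans much of the threshold, which limits what single weak sites show.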

Other observations

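Chromosome X, which the choice of sites leaves out, held 89 pairs, 66 of them eligible. By the same thresholds and the autosomal centre, 12 of the 66 were Ricky-high (18.2%, exact Clopper-Pearson interval 9.76% to 29.6%) and 0 were Vok-high. Among eligible autosomal pairs these shares were 7.75% and 4.59%. The median centred ratio of the eligible X pairs was -0.37, against -0.15 at eligible autosomal pairs. Eligible X pairs were thus shifted as a set towards Ricky, and the count past a fixed threshold cannot be read apart from that shift. Its cause was not tested.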
